A study of Mus musculus with 4 samples.

Results

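The skeletal muscle contractile genes described here are the fast troponin I gene Tnni2, the fast troponin T gene Tnnt3, the skeletal α-actin gene Acta1, the muscle creatine kinase gene Ckm, the fast regulatory myosin light chain gene Mylpf, the sarcoplasmic reticulum calcium pump gene Atp2a1, the nebulin gene Neb, the titin gene Ttn and the fast myosin heavy chain gene Myh1. These were 9 of 10 genes named for the set, out of 24873 genes listed, and Tnnc2 was not analysed here. The set was chosen by gene symbol with the contrast between control and tamoxifen libraries in view, so the members' values on that contrast are given as a description, with no test.

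RNA was sequenced from brain cells of adult mice that carried the VE-cadherin cre/ERT2 transgene and floxed Mgp alleles (Mgp fl/fl), a genotype that GEO's labels write as Cdh5cre;Mgpflox/flox. In these mice tamoxifen switches on a Cre recombinase driven by the VE-cadherin promoter, which deletes Mgp, the gene of matrix Gla protein, an inhibitor of bone morphogenetic proteins, in endothelial cells. Tamoxifen was given once a day at 75 mg/kg for 5 days to mice that were 10 weeks old, with sampling on day 9, and the control group carried the same Cre and floxed alleles but received no tamoxifen, so an effect of tamoxifen itself and of the deletion cannot be told apart from this comparison. Each group had 2 libraries, each from the pooled cells of 3 mice, and the cells were sorted as CD31+CD45- cells, while the labels call them tdTomato+ brain cells. Table columns headed C were read as control and those headed A as tamoxifen, although the sample titles carry no A. With pooled cells, p-values measure only the spread between these 2 libraries in each group.

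Contraction of striated muscle takes place in the sarcomere, where myosin thick filaments pull on actin thin filaments. Troponin on the thin filament lets calcium switch this pull on, nebulin runs along the thin filament, and titin spans from the Z-disc to the M-band. Fast and slow fibres, the heart and the embryo use different genes of the same families, so that a troponin or myosin gene marks the kind of muscle. Brain endothelial cells are not known for sarcomeres, although they contain non-muscle actin and myosin.

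The libraries held 35387438 to 49799321 reads on genes, and 1 read was worth 0.719 to 1.37 normalized counts (read counts divided by a size factor for each library). A floor of 3 reads therefore corresponded to 2.16 to 4.11 normalized counts. Of 20485 genes tested with limma, 5867 were called higher and 3284 lower in the tamoxifen libraries, with calls made where the Benjamini-Hochberg adjusted p lay below 0.05 and the log2 fold change exceeded 1 in size. All 10 endothelial markers examined were called lower, and their summed normalized counts were 988125 and 964318 without tamoxifen and 168017 and 85910.5 with it. In bulk RNA, fewer cells of a type and less RNA per cell cannot be told apart. Ptprc, which encodes the CD45 protein used to sort cells out, had 50.7 and 83.9 normalized counts without tamoxifen and 1423 and 1119 with it. The targeted gene Mgp had 1094 and 1352 normalized counts without tamoxifen and 945 and 909 with it, a log2 difference of -0.39 that lay under the fold threshold for a call.

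In 8 of the 9 members both tamoxifen libraries lay above both control libraries, and in 1, Ttn, the groups overlapped. Among all genes tested, 43.1% had both tamoxifen libraries above both control libraries and 39.2% had both below them, while 44.7% were called in either direction, 28.6% higher and 16.0% lower. Because the members were chosen on this contrast, nothing is read from their count. Their log2 differences, on the log2(normalized count + 1) scale used throughout, ran from -0.03 to 8.37 with a median of 5.89, against a median of 0.05 over all genes tested. The members fell into a group of 5 that was almost without reads in the control libraries (Acta1, Tnni2, Tnnt3, Myh1 and Ckm) and a group of 4 that had reads in every library (Mylpf, Atp2a1, Neb and Ttn).

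**Figure D1:**
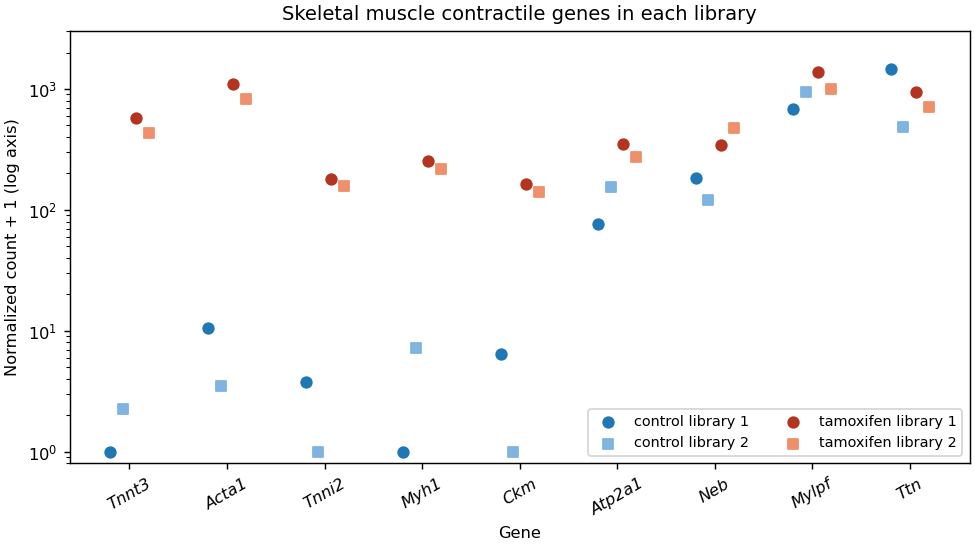
Normalized count + 1 (log axis) of each contractile gene in the 2 control libraries (blue) and the 2 tamoxifen libraries (red), 1 point a library, ordered by log2 difference. Tnnt3, Acta1, Tnni2, Myh1 and Ckm had 0 to 9.59 normalized counts without tamoxifen and 140.2 to 1091 with it, and the points of Ttn overlap.

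Thin filament genes are given first. Acta1 encodes the actin of the skeletal muscle thin filament and lies on chromosome 8 (GRCm39, chr8:124618501-124623661, minus strand). It had 9.59 and 2.50 normalized counts without tamoxifen and 1091 and 825 with it. The groups did not overlap, and the tamoxifen mean of 958 ± 189 (SD, n = 2) was 158-fold the control mean of 6.05 ± 5.01 (SD, n = 2). The control values rested on 7 and 2 reads.

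Tnni2 encodes troponin I of fast fibres, the subunit that holds actin and myosin apart at low calcium, and lies at chr7:141995545-141998147 (plus strand). It had 2.74 and 0 normalized counts without tamoxifen and 179.9 and 157 with it. Both tamoxifen values stood far above both control values, which came from 2 reads in all, and the ratio of the groups was 127 with an exact 95% counting interval of 35.0 to 1054. Such intervals and floors cover counting error only.

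Tnnt3 encodes troponin T of fast fibres, which ties the troponin complex to tropomyosin, and lies downstream of Tnni2 on the same strand at chr7:142048605-142070280. It had 0 and 1.25 normalized counts without tamoxifen and 569 and 429 with it. With 1 read in the controls, the ratio was 741 with a counting interval of 133 to 29313, so the size of the fold is known only roughly. Tnnt3 shared 221 exon bases with Prr33 on the other strand. Prr33 had 0 and 7.51 normalized counts without tamoxifen and 29.3 and 19.4 with it, far below Tnnt3. The annotated end of Lsp1 lay 1 base before Tnnt3. Lsp1 had 17.8 and 73.8 normalized counts without tamoxifen and 2318 and 1674 with it, above Tnnt3 in every library. The part of either gene in the values of Tnnt3 was not tested.

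Neb encodes nebulin, which lies along the thin filament, at chr2:52026659-52268486 (minus strand). It had 184 and 119 normalized counts without tamoxifen and 342 and 473 with it. The groups did not overlap, the tamoxifen mean of 408 ± 92.3 (SD, n = 2) being 2.7-fold the control mean of 151 ± 45.7 (SD, n = 2). Unlike the other thin filament genes, Neb thus had more than 90 reads in each control library, 134 and 95.

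The thick filament genes differed from each other. Myh1 encodes the myosin heavy chain of fast 2X fibres and lies in a cluster of myosin genes at chr11:67089132-67116631 (plus strand). It had 0 and 6.26 normalized counts without tamoxifen and 250.4 and 216 with it. The groups were far apart, with a ratio of means of 74.5, and all 5 control reads came from 1 library. Myh1 shared 907 exon bases with the antisense RNA gene Myhas.

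Mylpf encodes the regulatory light chain that binds the neck of fast myosin, at chr7:126807207-126813470 (plus strand). It had 685 and 942 normalized counts without tamoxifen and 1389 and 989.9 with it. The lower tamoxifen library stood just above the higher control library, and the means of 814 ± 182 and 1190 ± 282 (SD, n = 2 each) differed by 1.46-fold, so the separation was small beside the spread within each group. Mylpf had the highest control level per kb of the members and, next to Ttn, the smallest difference. It shared 300 exon bases with Septin1 on the other strand, which rose from 238 and 288 to 1575 and 1410 normalized counts (log2 fold change 2.50, limma, Benjamini-Hochberg adjusted p = 6.65e-05). It also shared 58 exon bases with Tbc1d10b, which had 2881 and 3428 normalized counts without tamoxifen and 3105 and 2709 with it. The library kit marked strand, but the strand setting of the counting is not given in the sources used here, and the part of the opposite-strand genes in the values of Mylpf was not tested.

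Ttn encodes titin, the spring that joins Z-disc and M-band, at chr2:76534136-76812891 (minus strand). It had 1455 and 486 normalized counts without tamoxifen and 947 and 712 with it. Both tamoxifen values lay between the control values, which themselves differed 3.0-fold, and the log2 difference was -0.03. Its sign turned with the library left out, from -0.82 without control library 2 to 0.76 without control library 1, and was 0.44 when all libraries were scaled to equal totals. No direction can be given for Ttn.

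Calcium handling and energy supply were represented by a gene each. Atp2a1 encodes SERCA1, the pump that returns calcium to the sarcoplasmic reticulum of fast fibres, at chr7:126045013-126063423 (minus strand). It had 75.3 and 154 normalized counts without tamoxifen and 350.1 and 275 with it. The groups did not overlap, and the tamoxifen mean of 312 ± 53.3 was 2.72-fold the control mean of 115 ± 55.6 (SD, n = 2 each). Atp2a1 shared 1188 exon bases with Rabep2 on the other strand, more than any other member shared with a listed gene. Rabep2 moved the other way, from 1585 and 1887 to 858 and 623 normalized counts (log2 fold change -1.24, limma, Benjamini-Hochberg adjusted p = 0.0016), a call that was lost without tamoxifen library 2 and at equal totals.

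Ckm encodes the creatine kinase that buffers ATP beside the myofilaments, at chr7:19138701-19157965 (plus strand). It had 5.48 and 0 normalized counts without tamoxifen and 161 and 140.2 with it. The tamoxifen libraries were 55.1-fold the controls in mean, with all 4 control reads from control library 1. Ckm shared 2564 exon bases with the antisense RNA gene A930016O22Rik.

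Per kb of the canonical transcript, Mylpf was the most abundant member in the tamoxifen libraries, with a mean of 1553 normalized counts per kb. Acta1 followed with 581, Tnnt3 with 285, Tnni2 with 230.4, Atp2a1 with 75.4, Ckm with 37.2, Myh1 with 30.9, Neb with 17.4 and Ttn with 7.72 normalized counts per kb. Of these neighbours in order, Tnnt3 and Tnni2 overlapped between libraries and the others did not. The levels spanned 201-fold, so the members did not stand at one common level. In the control libraries the order was another, with Mylpf at 1062, Atp2a1 at 27.7, Ttn at 9.02 and Neb at 6.47 normalized counts per kb ahead of Acta1 at 3.67, Tnni2 at 1.87, Ckm at 0.675, Myh1 at 0.415 and Tnnt3 at 0.357.

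Together the members made up 0.00471% and 0.00333% of all normalized counts without tamoxifen and 0.0138% and 0.0118% with it. Between the tamoxifen libraries, 8 of the 9 members were higher in library 1, by 1.14-fold (Tnni2) to 1.40-fold (Mylpf), and Neb was lower there, at 0.724 of its level in library 2. The members' median log2 difference between these libraries, library 2 minus library 1, was -0.35. Over all genes tested it was -0.08, and 58.0% of genes were lower in library 2. The 10 endothelial markers were all lower in library 2 as well, with a median of -0.94, so the library with the higher contractile gene values also held more endothelial transcript.

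**Figure D2:**
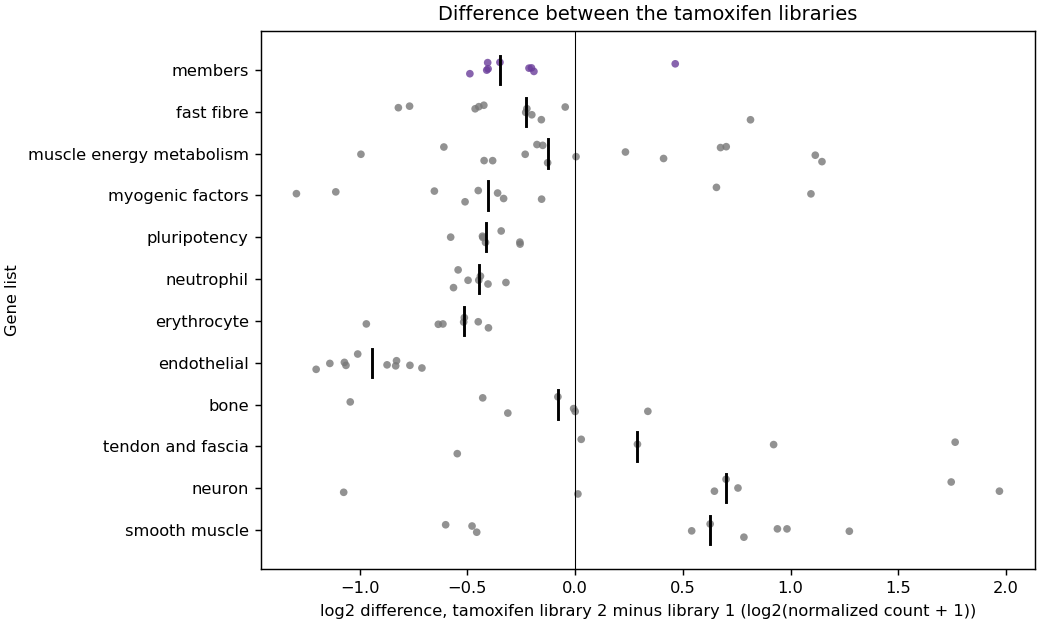
Difference between the tamoxifen libraries, library 2 minus library 1 on the log2(normalized count + 1) scale, for the contractile genes (purple) and for tested genes of other lists (grey), 1 point a gene with the median as a black line. Members had a median of -0.35, fast fibre genes -0.23, pluripotency markers -0.42, neutrophil markers -0.45, erythrocyte markers -0.52 and endothelial markers -0.94. Neuron markers had a median of 0.70.

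The stretch of 250 bases before the start site of members whose promoter is in RefSeq's mouse table (GRCm38.p6) was searched on both strands for motifs bound by muscle regulators. These were the E-box CANNTG (MyoD family), the MEF2 site, the CArG box (serum response factor) and the M-CAT core CATTCC (TEAD factors). Of the 9 members, 6 had an entry, and 5 promoters are shown so that members almost without control reads (Acta1, Ckm and Myh1) can be set beside members with reads in every library (Ttn and Mylpf). Capitals mark the motif matches, and no 2 matches overlapped.
Acta1 (chr8:123894776-123895025, minus strand): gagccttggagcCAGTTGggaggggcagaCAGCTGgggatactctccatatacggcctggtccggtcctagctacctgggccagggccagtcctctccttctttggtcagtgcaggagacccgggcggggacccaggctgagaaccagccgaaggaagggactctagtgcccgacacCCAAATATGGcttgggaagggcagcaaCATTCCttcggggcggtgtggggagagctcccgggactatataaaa
Ckm (chr7:19410844-19411093, plus strand): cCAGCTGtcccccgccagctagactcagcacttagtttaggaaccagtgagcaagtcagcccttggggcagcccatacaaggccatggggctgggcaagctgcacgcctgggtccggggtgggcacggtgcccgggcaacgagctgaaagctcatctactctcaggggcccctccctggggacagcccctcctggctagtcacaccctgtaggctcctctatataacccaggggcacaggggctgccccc
Myh1 (chr11:67199852-67200101, plus strand): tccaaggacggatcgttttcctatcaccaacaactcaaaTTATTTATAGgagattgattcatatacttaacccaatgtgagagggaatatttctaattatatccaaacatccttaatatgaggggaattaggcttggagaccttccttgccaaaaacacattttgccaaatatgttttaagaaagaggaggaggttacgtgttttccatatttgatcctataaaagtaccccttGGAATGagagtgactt
Ttn (chr2:76982548-76982797, minus strand): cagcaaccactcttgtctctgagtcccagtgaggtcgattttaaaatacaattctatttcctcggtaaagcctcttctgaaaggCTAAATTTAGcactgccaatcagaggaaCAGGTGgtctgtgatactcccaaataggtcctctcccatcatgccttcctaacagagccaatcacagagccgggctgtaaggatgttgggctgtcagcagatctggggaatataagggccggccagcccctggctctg
Mylpf (chr7:127211358-127211607, plus strand): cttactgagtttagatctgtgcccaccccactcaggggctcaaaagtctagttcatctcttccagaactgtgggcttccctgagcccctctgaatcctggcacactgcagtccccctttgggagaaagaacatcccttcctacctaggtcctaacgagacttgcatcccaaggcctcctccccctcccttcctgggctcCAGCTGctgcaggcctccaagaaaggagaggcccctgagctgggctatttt
Acta1 held 2 E-boxes, a CArG box starting 73 bases before the start and an M-CAT core 46 bases before it. Ckm and Mylpf each held an E-box of the letters CAGCTG, as did Atp2a1, which is not shown. Ttn held an E-box and a MEF2 site, and Myh1 held a MEF2 site and an M-CAT core on the reverse strand.

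An E-box was present in 5 of the 6 member promoters and in 66.2% of 32851 mouse promoters of the same length. MEF2 sites were present in 2 of the 6 and in 2.92% of all promoters. A CArG box was present in 1 of the 6 against 1.47%, and an M-CAT core in 2 of the 6 against 12.6%. These matches describe letters in the window and say nothing of binding. Both the Myh1 promoter, with a large difference, and the Ttn promoter, with overlapping groups, held a MEF2 site.

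Skeletal muscle genes outside the set were read from the limma fit over all genes, in 7 lists of 113 genes, of which 108 were listed and 91 passed the filter of a mean of at least 10 normalized counts. Of these, 66 rose, 3 fell and 22 were not called, so 72.5% rose, beside 28.6% of all genes tested. The count depended on both tamoxifen libraries and fell when either was left out, as did the count of higher calls over all genes tested. It also depended on the filter. With a filter at a mean of 100, 28 of 43 of these genes rose, beside 3540 of 13668 over all genes tested. Because a gene almost absent from the controls passes the filter only through the tamoxifen libraries, these shares describe the genes that passed. The median log2 fold change over the 91 genes was 3.36, against 0.05 over all genes tested.

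Fast fibre genes rose in 10 of 11 tested, with a median log2 fold change of 5.55, or 4.83 with genes at 0 control reads set to their lower bound. Myh4, the heavy chain of the fastest limb fibres, had 1.37 and 0 normalized counts without tamoxifen and 444 and 380.3 with it (log2 fold change 8.06, limma, Benjamini-Hochberg adjusted p = 5.34e-05). Myl1, the essential light chain of fast myosin, rose by 7.60, and Actn3, the α-actinin of fast fibre Z-discs, by 6.99 on the log2 scale. Tpm2, a tropomyosin, went from 127 and 260.3 to 1915 and 1633 normalized counts, a log2 fold change of 3.27. All of these rises held with any 1 library left out, whereas 2 of the 10 fast fibre calls were lost when either tamoxifen library was left out. The kinase gene Mylk4 did not pass, with 65.7 and 52.6 normalized counts without tamoxifen and 71.5 and 126.5 with it.

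Slow fibre genes rose in 7 of 12 tested, with a median of 4.05, or 4.0 with bounds. Mybpc1, slow myosin-binding protein C, rose by 5.04, the heavy chain genes Myh7b and Myh7 rose by 5.21 and 4.29 on the log2 scale, and Myl2, a slow and ventricular light chain without a control read, was at least 23.1-fold higher in the tamoxifen libraries. Myh7b lost its call when either tamoxifen library was left out, and Mybpc1 lost it without tamoxifen library 2, which ended 3 of the 7 calls. Atp2a2, the calcium pump gene SERCA2 used in slow muscle and in most other cells, was not called and had 15609 and 14755 normalized counts without tamoxifen and 18959 and 20662 with it. Slow troponin T (Tnnt1) and slow troponin C (Tnnc1) were also not called, at log2 fold changes of 0.76 and 0.75.

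Genes of the Z-disc, the M-band and the filament ends rose in 16 of 22 tested and fell in 1, with a median of 2.91, or 2.40 with bounds. Flnc, the muscle filamin, went from 80.8 and 114 to 5580.5 and 4281 normalized counts (log2 fold change 5.66). The intermediate filament gene Des rose by 2.23, the methyltransferase gene Smyd1, which helps fold myosin, by 4.36, and Cmya5 by 1.35. Unc45b, the myosin chaperone gene of striated muscle, fell from 5653 and 5075 to 983 and 547 normalized counts (log2 fold change -2.87, limma, Benjamini-Hochberg adjusted p = 9.99e-05). Leaving out either tamoxifen library ended 8 of the 17 calls on this list, those of Des and Cmya5 among them. The M-band gene Myom1 was not called, at 136 and 135 normalized counts without tamoxifen and 176 and 316 with it.

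Genes of excitation-contraction coupling and the nerve-muscle junction rose in 10 of 17 tested and fell in 1, with a median of 2.47. Ryr1, the calcium release channel of skeletal muscle, went from 2.74 and 6.26 to 607 and 461 normalized counts (log2 fold change 6.67). Srl, which encodes sarcalumenin of the sarcoplasmic reticulum, rose by 2.47, and Dok7 and Musk, which cluster acetylcholine receptors at the junction, rose by 3.25 and 4.09. Chrnb1, a subunit gene of that receptor, fell from 2466 and 2633 to 549 and 354 normalized counts (log2 fold change -2.53). When either tamoxifen library was left out, 3 of the 11 calls were lost, none of them of the genes named here. Jph1, which ties the surface membrane to the reticulum, was not called at 0.13.

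Of the muscle energy metabolism genes, 11 of 15 rose and none fell, with a median of 2.45. Fabp3, a fatty acid binding protein of muscle and heart, went from 17.8 and 7.51 to 1879 and 1402 normalized counts (log2 fold change 7.0). Ak1, adenylate kinase, rose by 4.48, Phkg1, the catalytic subunit of muscle phosphorylase kinase, by 3.98 and Pygm, muscle glycogen phosphorylase, by 1.28. Pygm lost its call without tamoxifen library 2, as did 4 others of this list. Pfkm, muscle phosphofructokinase, stayed under the fold threshold at 0.85, with 3382 and 4000.1 normalized counts without tamoxifen and 6119 and 7195 with it.

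Developmental isoforms rose in 3 of 4 tested, with a median of 3.35. These were the embryonic heavy chain gene Myh3 (3.40), the cardiac and fetal actin gene Actc1 (4.82) and the cardiac and fetal troponin T gene Tnnt2 (3.30). Myh3 and Tnnt2 lost their calls when either tamoxifen library was left out. Myl4, an embryonic and atrial light chain gene, was not called, at 481 and 429 normalized counts without tamoxifen and 319 and 253 with it.

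Myogenic factors rose in 9 of 10 tested and fell in 1, with a median of 4.02, or 3.13 with bounds. The list held 16 genes, of which 13 were listed in the data. Myf5, Myf6 and Mymk were not listed, and Myod1, Myog and Tcf21 were too low to test. The count therefore includes no gene of the MyoD family. Mymx, which encodes a fusion peptide of myoblasts, went from 0 and 1.25 to 424 and 336 normalized counts (log2 fold change 7.98). The homeobox gene Six4, which acts in muscle precursors and in other embryonic tissues, rose by 5.15, and both of these calls held with any 1 library left out, whereas 4 of the 10 calls on this list were lost without tamoxifen library 1 and 3 without tamoxifen library 2. Tbx1, a T-box gene of pharyngeal muscle progenitors and of endothelium, fell from 5823 and 7001 to 837 and 387 normalized counts (log2 fold change -3.49). The factors Myod1 and Myog, which start muscle differentiation, were too low to test, Myod1 with 0 reads in both control libraries and 3.25 and 21.6 normalized counts in the tamoxifen libraries, Myog with 0 and with 4.34 and 8.63.

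**Figure D3:**
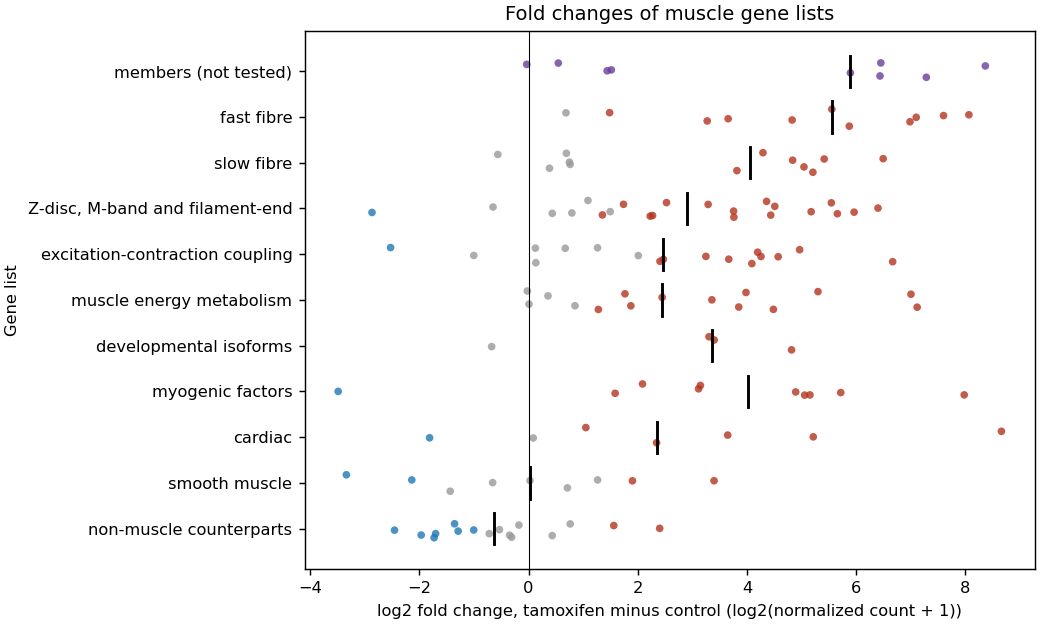
Log2 fold change, tamoxifen minus control, of each contractile gene (purple, not tested) and of each tested gene in the other lists, 1 point a gene with the list's median as a black line. Red genes were called higher, blue lower and grey not called by limma. The medians of the 7 skeletal muscle lists lie between 2.45 and 5.55, and that of the cardiac list lies close by at 2.35. Those of the smooth muscle and non-muscle lists lie at 0.03 and -0.63.

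The families to which the members belong were followed into other kinds of muscle and into non-muscle cells. Of 24 paralogues tested, 15 rose, 1 fell and 8 were not called, and of these 16 calls 7 were lost without tamoxifen library 1 and 8 without tamoxifen library 2. Among troponins, slow troponin I (Tnni1) rose by 3.82 while cardiac troponin I (Tnni3) was not called, with 179 and 175 normalized counts without tamoxifen and 241 and 147 with it. In the actin family, the enteric smooth muscle gene Actg2 rose by 3.40, with 3 reads in the controls and 19 and 58 in the tamoxifen libraries. Without tamoxifen library 2, Actg2 did not pass the filter. The vascular smooth muscle gene Acta2 was not called at 422 and 939 against 745 and 1428 normalized counts, and the cytoplasmic genes Actb and Actg1 were not called at -0.53 and -0.31. Tnni3, Acta2, Actb and Actg1, none of which was called, each had more than 100 normalized counts in both control libraries. So did Ckb and Nebl of other families, which were called higher and lower. Tnnc1 was not called with 34.2 and 22.5 normalized counts in the control libraries. When either tamoxifen library was left out, Tnni1 lost its call.

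The 9 sarcomeric heavy chain genes, Myh1 included, were low in the control libraries. Of the fast genes, Myh2 rose by 5.55, a call that was lost when either tamoxifen library was left out, and the extraocular gene Myh13 by 7.10, and of the heart genes, Myh6 rose from 11.0 and 7.51 to 266 and 526 normalized counts (log2 fold change 5.21). Per kb in the tamoxifen libraries, Myh4 stood at 69.3 normalized counts, Myh6 at 63.3, Myh7b at 38.1, Myh13 at 35.0, Myh1 at 30.9, Myh7 at 19.9, Myh2 at 16.8, Myh3 at 9.43 and Myh8 at 2.52. Fast, cardiac and extraocular heavy chain genes were therefore all detected, and Myh1 was in the middle of the order. Reads of the heavy chain genes, whose sequences are alike, could be split between paralogues.

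**Figure D4:**
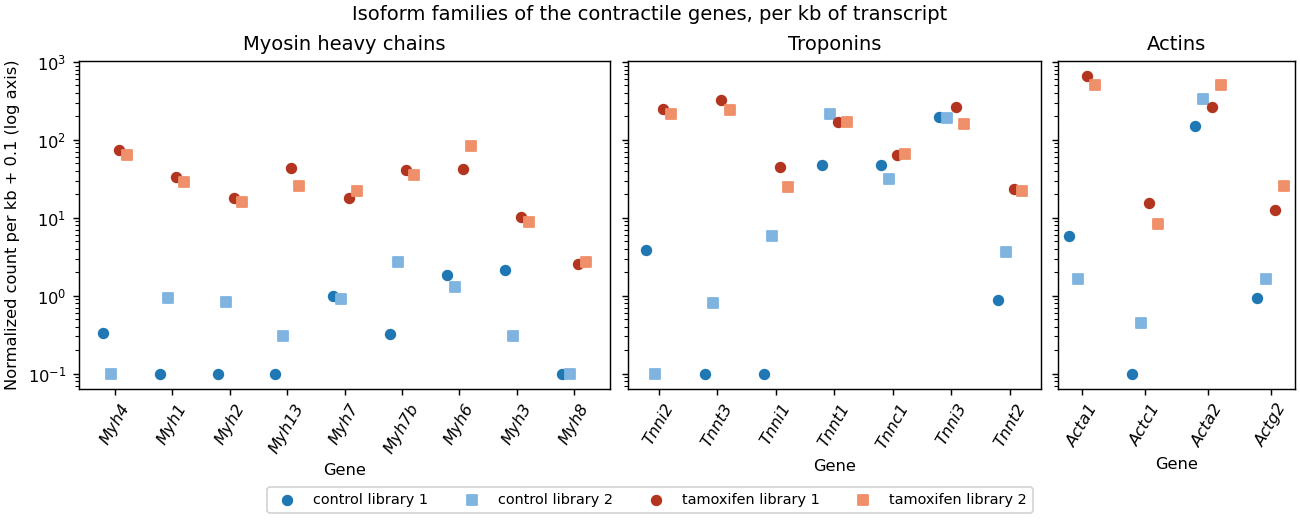
Normalized count per kb of canonical transcript + 0.1 (log axis) in each library for the families of myosin heavy chains, troponins and actins, with control libraries in blue and tamoxifen libraries in red. All 9 heavy chain genes are higher in both tamoxifen libraries, whereas Tnnt1 and Acta2 overlap between the groups.

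The other families moved in both directions. In the regulatory light chain family of Mylpf, the atrial gene Myl7 rose by 2.35, and Myl10 was too low to test, as was the creatine kinase gene Ckmt2. For the calcium pumps, Atp2a3, found in blood and endothelial cells, stayed under the fold threshold at 0.76. The creatine kinase paralogues Ckb, the brain form, and Ckmt1, the mitochondrial form, rose by 2.40 and 1.56, Ckb from 2160.1 and 2683 to 10163 and 15938 normalized counts. Nebl, the nebulin-like gene of non-muscle and heart cells, fell from 12638 and 9394 to 2287 and 1727 normalized counts (log2 fold change -2.45, limma, Benjamini-Hochberg adjusted p = 7.50e-05), and Nrap, a nebulin-related gene of muscle, rose by 3.29. Neb and its relative Nebl thus lay on opposite sides of 0. The calls of Myl7, Ckmt1 and Nrap were lost when either tamoxifen library was left out.

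Genes of non-muscle contractility rose in 2 of 16 tested and fell in 7, with a median of -0.63. Non-muscle myosin heavy chain Myh9 fell by 1.00, its light chain Myl6 by 1.73, α-actinin 4 (Actn4) by 1.29 and the tropomyosin gene Tpm4 by 1.35 on the log2 scale. With all libraries scaled to equal totals, which moved the median of all genes tested from 0.05 to 0.54, the list's median was -0.16, its calls were 3 higher and 4 lower, and Myh9, Actn4 and Tpm4 were no longer called. Myh9 also lost its call without control library 1, control library 2 or tamoxifen library 2. Smooth muscle genes rose in 2 of 9 tested and fell in 2, with a median of 0.03, or 3 and 2 with a median of 0.50 at equal totals. Cnn1, smooth muscle calponin, rose by 1.90, Smtn fell by 2.14, Synpo2 fell by 3.34, and Mylk did not pass the fold threshold at -0.66. The cardiac list rose in 5 of 7 tested and fell in 1, with a median of 2.35. It was led by the transcription factor gene Gata4, which went from 1.37 and 2.50 to 1356 and 1001 normalized counts (log2 fold change 8.66). Ryr2, the calcium release channel of heart and brain, rose by 1.05, and Pln, the inhibitor of SERCA2, fell by 1.81. Leaving out either tamoxifen library ended 4 of the 6 cardiac calls and the calls of Cnn1, Myl7, Ryr2 and Pln, while 2 of the 4 smooth muscle calls were lost without tamoxifen library 2, and Pln was not called at equal totals either.

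Markers of tissues near muscle were higher in sum in both tamoxifen libraries, as were the contractile genes. Tendon and fascia markers rose in 4 of 5 tested, and their sum was 133 and 180.2 normalized counts without tamoxifen and 644 and 1232 with it. Adipocyte markers rose in 3 of 3 tested, with sums of 61.6 and 47.6 against 588.5 and 452. Without tamoxifen library 2, 3 of the 4 tendon and 2 of the 3 adipocyte calls were lost, and without tamoxifen library 1, 1 and 2 of them were. Peripheral nerve markers rose in 3 of 6 tested, with sums of 753 and 786 against 1532 and 2173. Of these 3 calls, 2 were lost without tamoxifen library 2. Prx, which was not called, held 516 and 542 normalized counts of the control sums and 655 and 542 of the tamoxifen sums. Bone markers rose in 6 of 7, with sums of 3193 and 3242 against 6014 and 4611. When either tamoxifen library was left out, 4 of these 6 calls were lost. Most of the bone sums came from Alpl, which was not called, with 3170 and 3207 normalized counts against 5433 and 4035. No marker on these 4 lists was at 0 in a tamoxifen library, while 1, 2, 0 and 2 of them in list order were at 0 in control library 1.

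Larger sums were seen for cell types other than these. All 7 neutrophil markers rose, with sums of 297 and 232 normalized counts without tamoxifen and 108979 and 81197 with it. All 7 pluripotency markers rose, with sums of 68.5 and 110.1 against 51305 and 39408, and all 7 erythrocyte markers rose, with sums of 19224 and 39137 against 173729 and 112680. When either tamoxifen library was left out, 4 of the 7 erythrocyte calls were lost. Neuron markers rose in 4 of 7 tested, with sums of 1026 and 1161 against 6225 and 9702, and 2 of these 4 calls were lost without tamoxifen library 2. Pituitary markers rose in 1 of 7 tested and fell in 6, with sums of 13118 and 36985 against 171 and 182. The summed level of the 9 contractile genes was 2416 and 1711 against 5281 and 4217 normalized counts. The part of any of these cell types in the contractile gene values was not tested.

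Genes beside the members on the chromosome did not share one direction. Of 34 neighbouring genes that are not members, taken 2 a side, 12 rose, 4 fell, 14 were not called and 4 were too low to test. Of all genes tested, 28.6% were called higher and 16.0% lower. The 12 that rose include the paralogues Myh2, Myh3 and Myh4, and nothing is read from the count. Next to Tnni2 and Tnnt3, Lsp1, a leukocyte gene, rose by 5.72 and Syt8 by 1.94, while Ctsd and Mrpl23 were not called at 0.26 and -0.32. Acta1 lay beside Nup133 and Ccsap, which rose by 1.16 and 1.54. Mark4, next to Ckm, was not called at -0.74, and Exoc3l2 on the same side fell by 2.47. Mylpf had the leukocyte gene Spn, which rose by 6.53, on one side, and Atp2a1 had Tufm and Sh2b1, which were not called at 0.48 and -0.57. By Neb, Rif1 rose by 1.32 and Tnfaip6 by 4.11, and by Ttn, Ccdc141 fell from 72792 and 54357 to 12136 and 7330 normalized counts (log2 fold change -2.74). When either tamoxifen library was left out, Lsp1, Syt8, Ccsap, Tnfaip6 and Rif1 lost their calls. In the myosin cluster, Myh3, Myh2 and Myh4 rose and Myh8 was too low to test, with 0 control reads and 15.2 and 15.8 normalized counts in the tamoxifen libraries.

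Each gene was centred on its own mean of log2(normalized count + 1), and the median over the members was taken in each library. The tested genes outside the set with the smallest Euclidean distance to this median profile were then found. They were Fcgr4, Gstp3, Aurka, Uhrf1, Ms4a4c, Il7r, Nkx2-4, Tsga10ip, 6430503K07Rik and Sh3gl3, at distances of 1.25 to 1.26. None of these is in a muscle list. Uhrf1, for example, had 351 and 338 normalized counts without tamoxifen and 9433 and 8016 with it. The median profile stood at -1.60 and -1.79 in the control libraries and at 3.05 and 2.85 in the tamoxifen libraries. Unlike those of a centred gene, these values did not cancel out over the libraries, so every distance held a fixed part. The members' own distances, from 2.51 for Ckm and Tnni2 to 4.94 for Ttn, held it too. The members' log2 differences were 5.89 or more, or 1.52 or less, beside 4.65 for Uhrf1. The genes nearest to the median profile are therefore not shown to resemble any member.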

How the data were processed

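RNA-Seq libraries were made with a stranded mRNA kit from 2 control and 2 tamoxifen pools. Per the submitters' notes the authors aligned reads to GRCm39 with STAR 2.7.10a and used DESeq2 1.36.0. The gene annotation is not given in the sources used here. The deposited signal values are read counts divided by a size factor for each library. Each column was a whole multiple of 1 read for 100% of values (tolerance 0.01), so reads were recovered. Alternatives ran edgeR 4.0.16 and DESeq2 1.42.0 on these reads.

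The main fit was limma 3.58.1 (trend, R 4.3.3) on log2(normalized count + 1), restricted to genes averaging 10 or more over the libraries, with Benjamini-Hochberg adjustment over 20485 genes. All tests were two-sided and had been tried on simulated data in which few genes changed and the spread was fixed. That trial does not cover genes almost without control reads, or as many changed genes as were called here. Per-kb levels used canonical transcripts of the GENCODE mouse annotation on GRCm39, the source also of the coordinates. Members and lists were chosen with earlier results of these data known. Named were all members, their paralogues, 2 neighbouring genes a side and the 10 genes nearest the members' median profile. Each other muscle list added up to 4 called genes a direction with the highest mean plus the highest that was not called. Other genes named were chosen after their values were seen, and a few genes under the rule are not reported here. Lower bounds used 3 reads a library in controls at 0. Other pseudocounts, filters, scalings, tests, a replicate block and leaving out each library were tried.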

Additional observations from a re-analysis of the deposited data

How the results depend on the processing

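Of the members, 5 rested on 1 to 9 control reads in all, so their folds are known only roughly. With 1 library left out, a lone library left in a group is assumed to vary like the other group. The members' median log2 difference of 5.89 became 6.45 with a pseudocount of 0.5, 4.42 with a pseudocount of 5 and 1.52 with a mean of at least 100, which kept 7 of the 9, and it ran from 4.55 to 6.0 when a library was left out. All 8 members above 0 stayed above 0 under every setting that kept them. With a mean of at least 100, limma called 5934 genes (3540 higher) and 28 other muscle genes higher. Leaving out 1 library gave 4979 to 10001 called genes, 3073 to 6466 higher, 1906 to 3535 lower, 40 to 75 other muscle genes higher and 3 to 4 lower. The lowest total, 4979, came without tamoxifen library 2, and 5811 remained without tamoxifen library 1. With equal totals 1815 genes were called lower, the median log2 fold change of all genes moved from 0.05 to 0.54, and 80.3% of calls were higher in place of 64.1%.

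Replicate numbers did not pair the libraries (correlation of same-numbered deviations 0.0251). With the replicate block 9525 genes were called, and 67 other muscle genes were higher and 4 lower. The other alternatives moved these counts by less than 1.5 times, and no named gene reversed its direction while called.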
